A study of Mus musculus with 26 samples.

Results

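Open chromatin at the promoters of noncoding genes was described in D1 and D2 medium spiny neurons (MSN), the 2 main projection neuron types of the nucleus accumbens, from mouse brain. A member is a peak that the authors' annotation places in the proximal promoter class and gives a Type other than protein_coding, and the rule uses annotation only. Of 399461 peaks in 8 lists, 8815 qualified, beside 86108 peaks at protein-coding proximal promoters. A proximal promoter peak has its centre within 250 bp of a transcription start site (TSS). The 8815 peaks carry the names of 2237 genes, since the same gene recurs over the lists. By Type, 1467 genes are misc, 610 lincRNA, 149 miRNA and 11 pseudogene.

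The assay is ATAC-seq, in which a transposase cuts accessible DNA in isolated nuclei. The groups are CC (cocaine relapse), CS (chronic cocaine and then a long withdrawal), SC (acute cocaine) and SS (baseline), in D1 MSN and in D2 MSN. In D1 MSN there were 4 libraries of CC, 4 of CS, 4 of SC and 2 of SS, and in D2 MSN there was 1 of CC, 8 of CS, 1 of SC and 2 of SS. Since a group is represented by 1 peak list, replicate errors and p-values could not be computed. Strain, sex, age, dose, transgene and the pooling of animals are not given in the sources used here. Intervals are exact Clopper-Pearson intervals at 95% and cover counting error only.

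Noncoding genes are transcribed by several machineries. Long noncoding RNAs (lncRNA) and most miRNA precursors are made by RNA polymerase II, while RNase P RNA, 7SL, 7SK and Y RNAs are made by RNA polymerase III from compact genes. Many lncRNAs start beside a protein-coding gene and share its open promoter, in divergent or antisense arrangement, whereas others start alone. Promoters rich in CG dinucleotides (CpG islands) tend to be open in most cell types, which makes CG content a useful feature beside accessibility. The annotated start of a miRNA gene is the start of its hairpin, so a peak there need not be the promoter of the primary transcript.

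The promoters below were chosen because they span the patterns found here, from present in every list to present in a few. Each is 250 bases before to 50 after the start, in the gene's own direction, from RefSeq (GRCm38.p6), with every CG dinucleotide in capitals. Firre (chrX:50635272-50635571, minus strand) is a nuclear lncRNA that starts alone, holds 12 CG and had a noncoding promoter peak in 8 lists. Dancr (chr5:74092810-74093109, plus strand), a snoRNA host gene, holds 18 CG and had one in 8 lists. Tug1 (chr11:3648765-3649064, minus strand) shares its promoter with protein-coding Morc2a, holds 37 CG and had one in 8 lists. The lincRNA gene 2810429I04Rik (chr13:3477982-3478281, plus strand) holds 11 CG and had one in 7 lists. Mir99ahg (chr16:77329078-77329377, plus strand), a miRNA host gene, holds 8 CG in this window and had one there in 4 lists.
Firre: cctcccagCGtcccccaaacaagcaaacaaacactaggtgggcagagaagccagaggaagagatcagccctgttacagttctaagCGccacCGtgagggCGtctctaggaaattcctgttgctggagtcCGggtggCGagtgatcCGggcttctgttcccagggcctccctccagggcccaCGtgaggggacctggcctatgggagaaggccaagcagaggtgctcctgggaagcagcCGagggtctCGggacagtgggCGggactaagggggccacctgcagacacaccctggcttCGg
Dancr: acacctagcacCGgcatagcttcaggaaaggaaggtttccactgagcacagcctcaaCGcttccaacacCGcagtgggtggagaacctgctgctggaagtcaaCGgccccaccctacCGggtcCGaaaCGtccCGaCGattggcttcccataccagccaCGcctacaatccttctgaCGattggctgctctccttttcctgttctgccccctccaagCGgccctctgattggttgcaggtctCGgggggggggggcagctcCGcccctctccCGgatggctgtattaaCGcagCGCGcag
Tug1: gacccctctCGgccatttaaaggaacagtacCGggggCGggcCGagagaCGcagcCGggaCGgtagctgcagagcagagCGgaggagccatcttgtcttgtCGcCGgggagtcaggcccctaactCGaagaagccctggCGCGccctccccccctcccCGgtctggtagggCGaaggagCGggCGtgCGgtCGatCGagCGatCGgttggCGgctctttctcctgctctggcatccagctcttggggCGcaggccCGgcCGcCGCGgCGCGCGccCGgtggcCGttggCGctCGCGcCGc
2810429I04Rik: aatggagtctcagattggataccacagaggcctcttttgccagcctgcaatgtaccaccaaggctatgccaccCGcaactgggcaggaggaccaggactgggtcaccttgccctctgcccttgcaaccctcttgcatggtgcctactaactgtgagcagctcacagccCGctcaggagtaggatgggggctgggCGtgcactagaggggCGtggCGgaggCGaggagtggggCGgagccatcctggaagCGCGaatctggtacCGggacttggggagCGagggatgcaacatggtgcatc
Mir99ahg: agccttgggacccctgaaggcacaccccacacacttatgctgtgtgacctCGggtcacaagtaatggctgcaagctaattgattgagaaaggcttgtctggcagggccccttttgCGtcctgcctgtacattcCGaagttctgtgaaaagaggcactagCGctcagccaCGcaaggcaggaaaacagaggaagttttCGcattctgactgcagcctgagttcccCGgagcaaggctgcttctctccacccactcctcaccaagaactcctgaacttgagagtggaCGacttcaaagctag

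The mature sequences below belong to listed neuronal miRNA genes that were named for a peak at their hairpin start. The seed (bases 2 to 8), the part that pairs with targets, is in capitals. They come from Mir132 (chr11:75173686-75173744, plus strand), Mir181a-1 (chr1:137966468-137966529, plus strand), Mir128-2 (chr9:112118644-112118701, minus strand) and Mir9-3 (chr7:79505279-79505339, plus strand). The 8 mature sequences have 8 distinct seeds, so none forms a seed family with another. Mir124a-2 also had peaks.
mmu-miR-132-5p: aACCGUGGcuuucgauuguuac
mmu-miR-132-3p: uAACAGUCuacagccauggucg
mmu-miR-181a-5p: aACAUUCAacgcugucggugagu
mmu-miR-181a-1-3p: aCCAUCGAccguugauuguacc
mmu-miR-128-3p: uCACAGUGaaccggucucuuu
mmu-miR-128-2-5p: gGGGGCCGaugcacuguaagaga
mmu-miR-9-5p: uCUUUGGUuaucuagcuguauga
mmu-miR-9-3p: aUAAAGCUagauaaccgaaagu

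Names say little about most members. Of the 2237 genes, 1895 have a Gm, Rik or clone-style name, and 1264 were matched in the RefSeq gene table. The misc class is mixed: 543 of its genes are lncRNA in RefSeq, 102 pseudogenes, 47 transcribed pseudogenes, 43 snRNA, 32 snoRNA and 24 immunoglobulin or T cell receptor V segments, and 629 were not matched. RefSeq calls 29 misc genes and 12 lincRNA genes protein-coding, as for Dcdc5, so part of the noncoding label rests on the choice of annotation. Of the miRNA genes, 82 of 149 matched a RefSeq hairpin. A shortest transcript span of at most 350 bp was found for 336 genes, and the small RNA genes among them often have near-identical copies, whose reads the processing could place at any copy.

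The number of noncoding promoter peaks was 1511 in D1 CC, 1267 in D1 CS, 905 in D1 SC and 715 in D1 SS. In D2 MSN it was 1198 in CC, 951 in CS, 1115 in SC and 1153 in SS. In D1 MSN every cocaine state thus had more than SS, while in D2 MSN SC and CS had fewer than SS. The same held for protein-coding promoter peaks. These numbered 12229, 11718, 10276 and 8585 in D1 CC, CS, SC and SS, and 10959, 10760, 10633 and 10948 in D2 CC, CS, SC and SS. Peaks of misc genes made up the most in each list, from 439 in D1 SS to 944 in D1 CC. The lincRNA peaks ranged from 235 in D1 SS to 463 in D1 CC, the miRNA peaks from 38 in D1 SS to 96 in D1 CC and the pseudogene peaks from 3 in D1 SS to 8 in D1 CC. Noncoding genes had 11.0% of all proximal promoter peaks in D1 CC, the highest share, and 7.69% in D1 SS, the lowest.

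**Figure D1:**
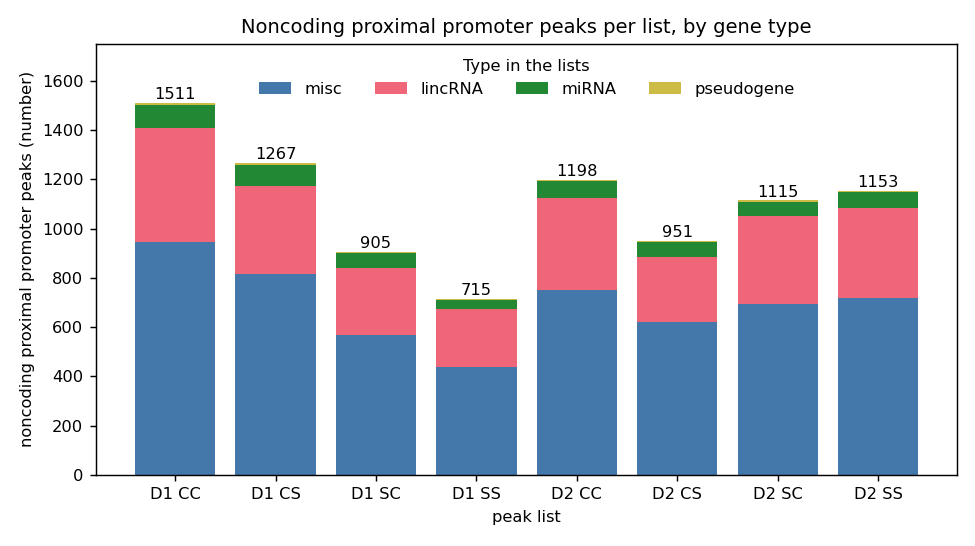
Number of noncoding proximal promoter peaks (vertical axis) in each of the 8 lists (horizontal axis), stacked by Type, with the total above each bar. D1 CC has the highest total, 1511, and D1 SS the lowest, 715; each bar is 1 list and has no error.

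The counts did not follow list length alone. The lists hold 77103 peaks in D1 CC, 48469 in D1 CS, 28321 in D1 SC and 28579 in D1 SS, against 68444 in D2 CC, 27917 in D2 CS, 58810 in D2 SC and 61818 in D2 SS. D1 CS had more noncoding promoter peaks than the longer D2 CC, D2 SC and D2 SS lists, and D1 SC more than the slightly longer D1 SS list. Read totals were not used here, and the part of depth was not tested. With every list reduced to its 27917 strongest peaks by q, noncoding promoter peaks numbered 793 in D1 CC, 841 in D1 CS, 894 in D1 SC and 703 in D1 SS. Under the same cut they numbered 684 in D2 CC, 951 in D2 CS, 678 in D2 SC and 685 in D2 SS. The SC excess over SS in D1 MSN was 190 peaks in full lists and 191 in lists of equal length, while the CS deficit of D2 MSN turned, with CS minus SS at -202 in full lists and 266 in lists of equal length.

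The lists also fall into 2 sets by a technical mark. D1 CC, D1 CS, D1 SC and D2 CS hold 137, 114, 73 and 70 peaks on assembly patch scaffolds, and D1 SS, D2 CC, D2 SC and D2 SS hold 4, 7, 7 and 7. The sets were formed from these counts, what made them was not tested, and 7 of the 14 comparisons below lie within a set. At equal length, noncoding promoter peaks numbered 793 to 951 in the first set and 678 to 703 in the other. The SC and SS lists of D1 MSN lie in different sets, and so do the CS and SS lists of D2 MSN. In these pairs state and patch set cannot be told apart. Of the labelled cell types' own markers, 8 of 8 D1 MSN markers had a peak in every D1 list, and 7 to 8 of 8 also had one in the D2 lists. Of 9 D2 MSN markers, 8 had a peak in each D2 list and 7 to 8 in D1 CC, D1 CS and D1 SC, but 1 in D1 SS. Drd2 had none in D1 SS, and Adora2a had none in D1 SS, D1 CS and D1 SC. An accessible region at a marker does not by itself tell the cell types apart. Of 30 markers of glia, vessels, interneurons and cortical neurons, 22 had a peak in D1 CC and 8 in D1 SC, the extremes over the lists, and their part in the results was not tested.

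Noncoding promoters ranked in the middle of each list. The fold of a peak is the authors' enrichment over background, not scaled between lists, so each peak was given its percentile among all peaks of its own list. The median fold percentile of noncoding promoters lay between 56.0 in D1 SS and 62.1 in D2 SS, while that of protein-coding promoters lay between 66.4 in D1 SS and 80.5 in D1 CC. The fraction ranked above the 90th percentile of the list was 13.4% to 17.5% for noncoding promoters and 18.5% to 31.9% for protein-coding ones. Median widths were 561 to 659 bp for noncoding promoters, 600 to 846 bp for protein-coding promoters and 455 to 563 bp for all peaks. The Types had overlapping ranges of median fold percentile, of 56.0 to 62.1 for misc, 51.4 to 65.1 for lincRNA and 57.7 to 64.0 for miRNA.

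Noncoding peaks with their centre 201 to 250 bp from the TSS, just inside the limit, numbered 59 in D1 SS to 169 in D1 CC, with median fold percentiles of 35.3 to 53.6. Those at 251 to 300 bp, just outside, numbered 44 in D1 SS to 141 in D1 CC, with medians of 29.8 to 48.9.

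Proximity to a protein-coding start split the members. A promoter is called near here when a protein-coding TSS of the RefSeq gene table lies within 1000 bp of the peak edge, and stand-alone otherwise. The near share was 27.1% in D1 CC, 30.9% in D1 CS, 39.8% in D1 SC and 39.4% in D1 SS, and 29.5% in D2 CC, 40.1% in D2 CS, 31.3% in D2 SC and 30.0% in D2 SS. Over all peaks it was 16.1%, 24.4%, 36.2% and 29.8% in D1 CC, CS, SC and SS. In D2 CC, CS, SC and SS it was 16.2%, 38.7%, 18.1% and 17.7% of all peaks. The noncoding share was thus closest to that of all peaks in D2 CS and D1 SC. In lists of equal length the near share was 38.0% in D1 CC, 38.8% in D1 CS, 40% in D1 SC and 39.8% in D1 SS, and 39.3% in D2 CC, 40.1% in D2 CS, 39.4% in D2 SC and 38.8% in D2 SS, so the lists then lay close together. The gene table has 1 start per gene and places 78.7% to 84.4% of protein-coding promoter peaks near a protein-coding start, so near shares are understated. By Type, near shares were 31.7% to 46.9% for misc, 16.8% to 28.2% for lincRNA and 30.2% to 50% for miRNA peaks.

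Among near members, 36.4% to 50% lay on the opposite strand with their start upstream of the coding start, the divergent arrangement. A further 33.3% to 40.1% were on the opposite strand with the start downstream of it, and 14.9% to 20.8% on the same strand. Tug1, whose RNA takes part in gene regulation in the nucleus, and Rmrp, the RNA of the RNase MRP complex, both lay at 0 bp from a protein-coding start, that of Morc2a and of Ccdc107.

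Stand-alone members ranked below near members. The median fold percentile of stand-alone promoters was 48.0 in D1 SS to 55.1 in D1 CC, around the middle of the list. For near promoters it was 66.8 in D2 CS to 77.6 in D1 CC. Stand-alone promoters were also narrower, with median widths of 486 to 604 bp against 622 to 917 bp for near ones. In each of the 8 lists the order was the same for fold percentile, stand-alone below near.

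**Figure D2:**
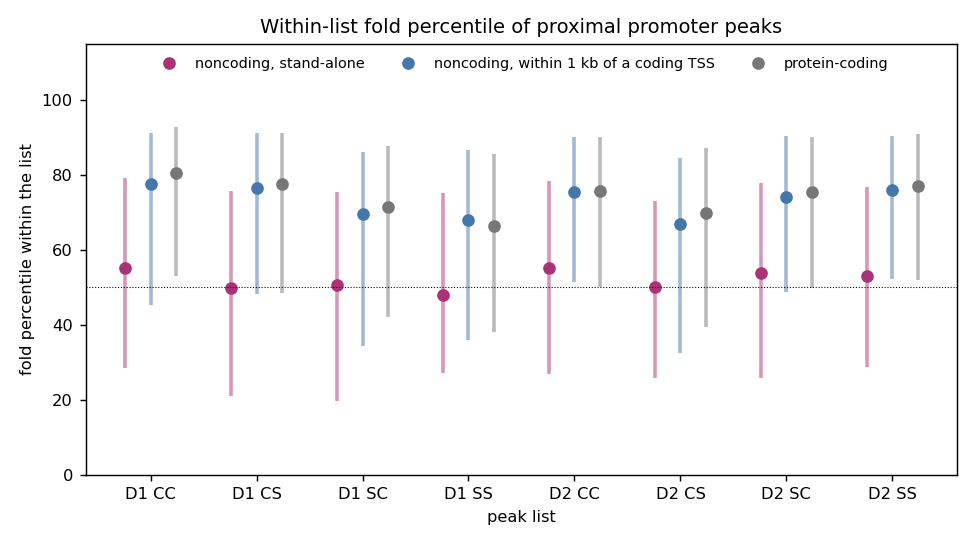
Fold percentile within the list (vertical axis, 100 is the strongest peak) of stand-alone noncoding, near noncoding and protein-coding proximal promoter peaks in each list (horizontal axis). Points are medians and lines the middle range from the 25th to the 75th percentile of peaks, not errors; stand-alone medians lie at 48.0 to 55.1 and near medians at 66.8 to 77.6.

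To follow promoters over lists, overlapping peaks of all lists were merged into 94493 regions, of which 2279 held a noncoding promoter peak in at least 1 list and 13146 a protein-coding one. Of the noncoding regions, 926 (40.6%) had a peak in all 8 lists, against 62.4% of protein-coding regions and 18.2% of all regions. The split by proximity was wide: 409 of 1523 stand-alone regions (26.9%, interval 24.6% to 29.2%) and 517 of 756 near regions (68.4%, interval 64.9% to 71.7%) were in all 8 lists. Regions in 1 list made up 14.6% of noncoding regions, 19.3% of stand-alone ones, 5.03% of near ones, 7.25% of protein-coding ones and 26.7% of all regions. By Type, presence in all 8 lists was 41.3% for misc, 38.6% for lincRNA and 40.7% for miRNA regions.

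**Figure D3:**
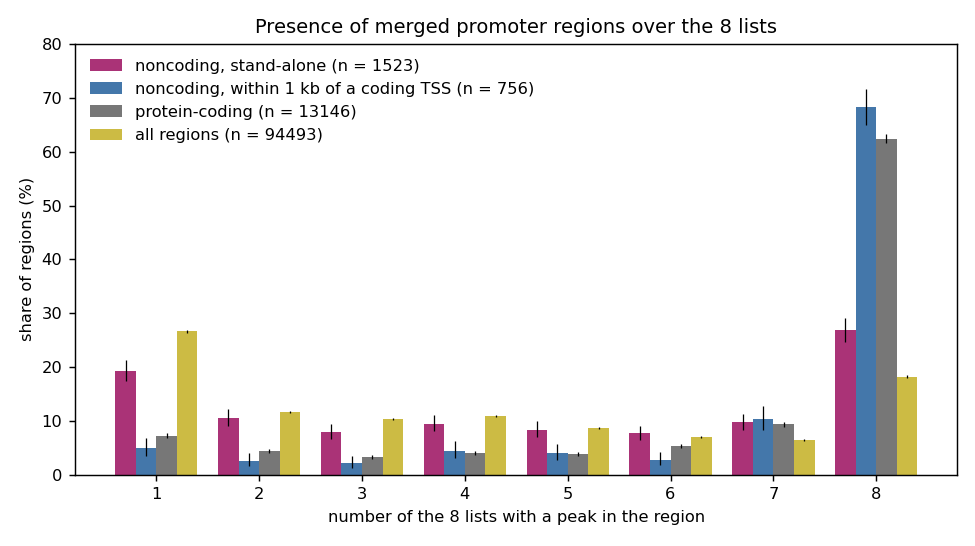
Share of merged regions in percent (vertical axis) by the number of lists with a peak there (horizontal axis), for stand-alone noncoding, near noncoding, protein-coding and all regions. Error bars are exact 95% intervals of the share; 26.9% of stand-alone and 68.4% of near noncoding regions are in all 8 lists.

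The noncoding label was not stable over lists. Of the 2279 regions, 642 (28.2%) were labelled noncoding in 1 or more lists and protein_coding in another. Such regions were in all 8 lists in 75.9% of cases, and regions noncoding in every list that had them in 26.8%. A region enters through any 1 list, so presence over lists is in part set by the way regions were formed. Gas5, a snoRNA host gene, was labelled noncoding in D1 SS, D2 CC and D2 SS, and the same region carried the label of the adjoining protein-coding gene Zbtb37 in the other 5 lists. Snhg9 was noncoding in 2 lists and protein_coding in 6, and Zfas1 noncoding in 6 and protein_coding in 2. Rn7s1, a gene of 7SL RNA, the RNA of the signal recognition particle, carried its own label in D1 CC, D1 CS, D1 SC and D2 CS. In the other 4 lists the region was open too but carried the label of the ribosomal protein gene Rps29.

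No noncoding region was found in exactly the 4 D1 lists, where 0.00529% of all regions were. In exactly the 4 D2 lists there was 1, Gm42962 (chr6:38983876-38984547), with a highest fold of 4.76, where 0.037% of all regions were. Every list except D1 SS held 146 regions (6.41%), beside 2.50% of all regions and 7.52% of protein-coding ones. Every list except D2 CS held 42 (1.84%), beside 2.37% of all regions, and every list except D1 SC 39 (1.71%), beside 1.44%. The lists left out in these 3 patterns are the shortest. Regions in 1 list numbered 186 in D1 CC, 49 in D1 CS, 3 in D1 SC and 0 in D1 SS, and 41 in D2 CC, 21 in D2 CS, 10 in D2 SC and 22 in D2 SS. As shares these are 8.16%, 2.15%, 0.132% and 0% in D1, beside 13.6%, 1.95%, 0.151% and 0.0995% of all regions. In D2 they are 1.80%, 0.921%, 0.439% and 0.965%, beside 5.79%, 0.344%, 2.02% and 2.75% of all regions. Exactly both CC lists shared 29 regions (1.27%), beside 2.45% of all regions, and exactly both CS lists 4 (0.176%), beside 0.0847%. Exactly both SC or both SS lists shared 0, beside 0.00423% and 0.0190% of all regions. The strongest region found in 1 list was CT030011.1 in D1 CC (chr12:25871080-25871581), with a fold of 7.27.

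Among the nuclear and other known lncRNAs, 6 of 10 genes had a noncoding promoter peak and 3 of them, Firre, Tug1 and Crnde, in all 8 lists. Firre, which helps organise nuclear structure, was among the strongest members. Its fold was 10.9, 10.7, 11.3 and 7.42 in D1 CC, CS, SC and SS, and 8.77, 9.57, 11.0 and 10.4 in D2 CC, CS, SC and SS. Within each list that put it at a percentile of 93.7 to 99.3, lowest in D1 SS. Tug1 had percentiles of 78.2 to 98.2 and Crnde of 62.2 to 96.1. Dleu2 had a peak labelled noncoding in 7 lists, without D1 SC, where a peak with another label covers the region. Pvt1, the neighbour of Myc, had the noncoding promoter label in 7 lists at 11.1 to 64.8, without D1 SS, although a peak covers the region in all 8 lists. Miat had the label in D1 CC at 2.9 and in D1 CS at 8.1. Malat1, a very abundant nuclear RNA, had no peak in the proximal class but one within 1 kb of its start in 7 lists, the nearest centre being 919 bp away. Neat1, Oip5os1 and Norad had no peak under their names.

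Of 14 X-inactivation and imprinted lncRNAs, 7 had a noncoding promoter peak, and Ftx and Kcnq1ot1 in all 8 lists. Kcnq1ot1, which silences its imprinted neighbours in cis, had percentiles of 68.4 to 92.5, and Ftx, a gene of the X-inactivation centre, of 81.3 to 94.7. Jpx, an activator of Xist, was in 7 lists at 17.1 to 92.1, without D1 SS. Tsix, the antisense RNA of Xist, was in 5 lists. Peg13 had the noncoding promoter label in 6 lists, and a peak covers its region in all 8. Airn was in D1 CC and D1 CS only among the 8 lists, and Nespas had the label in D2 CC and D2 SC, with a peak over its region in 3 lists. Xist and H19 had no peak under their names, and Meg3 had one within 1 kb of its start in 4 lists, 710 bp away at the nearest.

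Host genes of snoRNAs release from their introns the small RNAs that guide ribosomal RNA modification. Of 24 listed names, 22 occur in the lists or the gene table. Of the 24 names, 8 had no peak under that name, among them those that occur in neither source. A gene listed or annotated under another name is not counted for them. A noncoding promoter peak was found for 14, 6 of them in all 8 lists. Beside this stand the 40.6% of all noncoding regions in all 8 lists. Snhg6 had percentiles of 91.1 to 99.4, Dancr of 92.6 to 98.8, Snhg15 of 76.6 to 94.7 and Snhg5 of 76.8 to 96.5. The fold of Dancr was 9.70, 9.75, 10.8 and 7.29 in D1 CC, CS, SC and SS, and 9.80, 8.70, 9.86 and 8.40 in D2 CC, CS, SC and SS. Snhg20 and Snhg12 ranked lower, at 3.3 to 50.9 in 7 lists and 36.7 to 71.8 in 6 lists, and a peak covers the Snhg12 region in 7. Snhg11, which is abundant in neurons, carries the Type protein_coding here and had a promoter peak with its centre 2 bp from the start at the nearest.

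Neural antisense and divergent lncRNAs were the listed group with the fewest genes named for a noncoding proximal promoter peak. A start under a peak named for another gene, such as an adjoining coding gene, is not counted. Of 13 genes, 1 had such a peak under its name, Sox2ot, which overlaps the neural progenitor gene Sox2. It was in 7 lists, without D2 CS, at a percentile of 11.3 in D1 SC to 86.6 in D1 CC. Of the other 12 genes, 6 had peaks elsewhere under their names, such as Dlx6os1 in the Dlx5 and Dlx6 locus of inhibitory neurons, with peaks in 8 lists, and 6 had none.

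Of 14 miRNA host genes, 7 had a noncoding promoter peak, and Mir22hg at 79.4 to 91.9 and Mir670hg at 59.1 to 95.3 were in all 8 lists. Mir99ahg, which has several starts, was in 7 lists at 36.9 to 71.0. Mir155hg, the host of an inflammation-related miRNA, was found in D1 SC alone among the lists, with a fold of 3.67 at the 2.3 percentile of that list. Of 34 neuronal miRNA genes, 5 were named for a peak at the hairpin start. As in the other listed groups, a start under a peak named for another gene is not counted, clustered miRNA genes included. Mir181a-1 was in all 8 lists at 26.2 to 78.8. Mir132, an activity-regulated miRNA of neurons, was in all 8 lists at 2.0 to 35.0, with folds of 3.44 to 4.52. Mir124a-2, of the most abundant neuronal miRNA family, had the noncoding promoter label in 7 lists at 9.9 to 37.5, Mir128-2 in 5 at 11.4 to 45.4 and Mir9-3 in 3 at 2.5 to 17.9. A peak covers these regions in more lists, in 8 for Mir124a-2, 6 for Mir128-2 and 7 for Mir9-3. These hairpin peaks were thus weak within their lists, apart from Mir181a-1.

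Genes of small structural RNAs gave some of the strongest members. Of 10 listed genes, 8 had a noncoding promoter peak, and Rpph1, Rmrp, Rn7s2 and Vaultrc5 in all 8 lists. Rpph1, the RNA of RNase P that trims transfer RNA precursors, had a fold of 12.1, 11.8, 12.4 and 10.2 in D1 CC, CS, SC and SS, and 11.2, 12.7, 11.7 and 11.9 in D2 CC, CS, SC and SS. It lay at or above the 99.5 percentile of every list, and its peak also covers the start of Parp2. Rmrp ranked at 87.8 to 96.8 and Rn7s2, another 7SL gene, at 75.8 to 99.0. Rn7sk, whose RNA restrains transcription elongation, was in 7 lists at 71.2 to 95.4, without D2 SS as a noncoding label, although a peak covers the region in all 8 lists. Terc, the telomerase RNA, was in D1 CS alone among the lists at the 2.0 percentile. Bc1, a neuronal RNA, and Rny3 had no peak under their names.

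**Figure D4:**
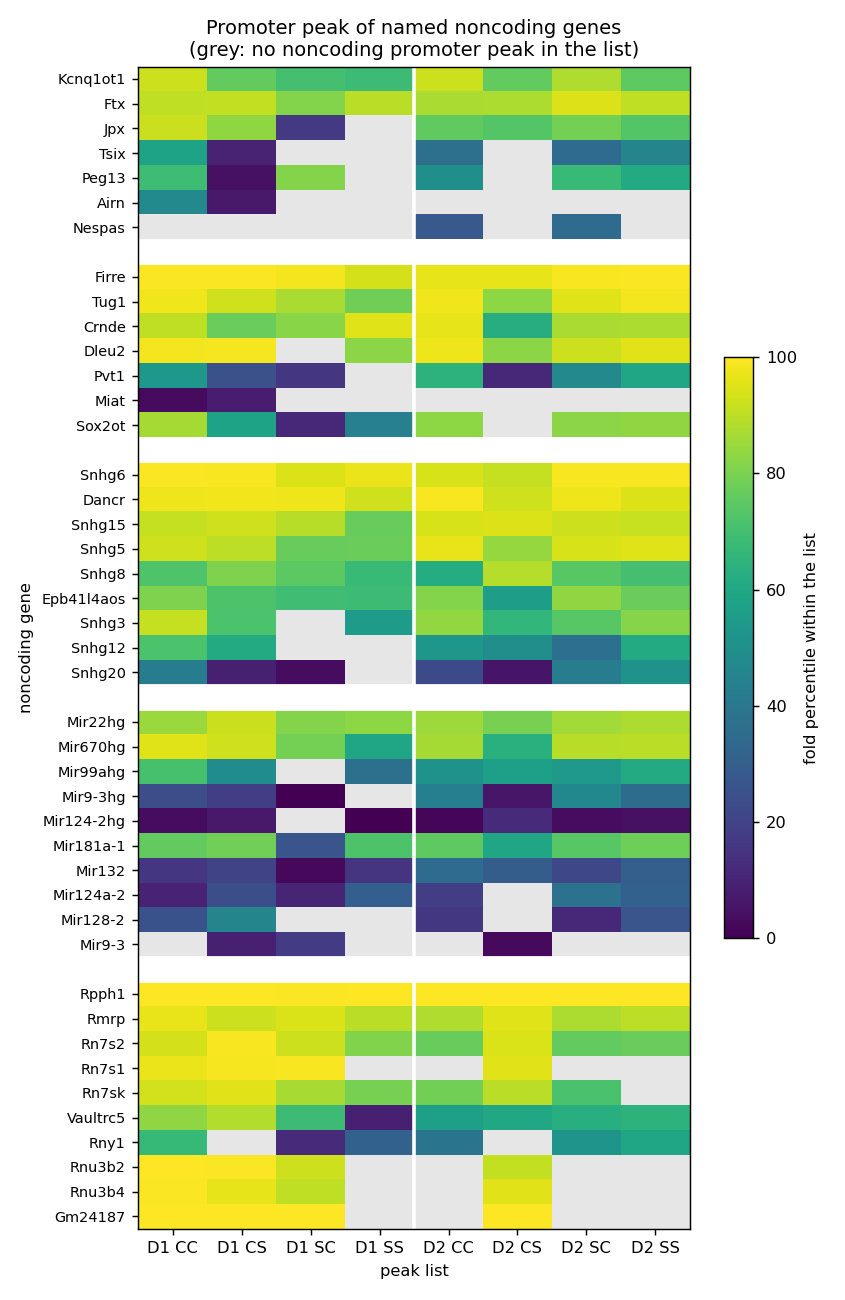
Fold percentile within the list (colour, 0 to 100) of the strongest noncoding promoter peak of each named gene (rows) in the 8 lists (columns). Rows are grouped by list: imprinted and X-linked, nuclear with other known and neural, snoRNA hosts, miRNA genes and hosts, small structural RNAs. Grey means no peak with a noncoding promoter label. Rpph1 is at or above 99.5 in every list, and Rnu3b2, Rnu3b4 and Gm24187 have values only in D1 CC, D1 CS, D1 SC and D2 CS.

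The strongest members present in all lists were mostly little-studied genes. Among misc genes they were AC124732.1 (chr13:8885241-8886214), with folds of 12.3 to 15.1, Rpph1 and 5730405O15Rik (chrX:13041480-13042360). Among lincRNA genes they were AC226737.1 (chr10:130541722-130542789), BC002059 (chr17:16950898-16951930) and Gm37494, and RefSeq calls the last of these protein-coding. Among miRNA genes they were Gm22256, Gm23935 and Mir1983. The peaks of AC124732.1 and Gm22256 also cover a protein-coding start, that of Idi1 and of Zfp935.

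The comparisons between states ask which promoters are open in 1 list and lack any overlapping peak in another, in both directions. In D1 MSN, 261 of 905 SC noncoding promoters (28.8%) had no peak in SS, where 26.5% of all SC peaks and 18.3% of SC protein-coding promoters had none. In the other direction, 80 of 715 SS noncoding promoters (11.2%) had no peak in SC, against 29.3% of all SS peaks. For CS, 583 of 1267 (46.0%) had no peak in SS, beside 48.0% of all CS peaks, and 21 of 715 SS ones had none in CS, beside 13.1% of all SS peaks. For CC, 842 of 1511 (55.7%) had no peak in SS, beside 64.5% of all CC peaks, and 1 of 715 SS ones had none in CC, beside 2.55%. The noncoding share was thus near that of all peaks for SC and CS and below it for CC and in each reverse direction. All 3 pairs set a list with many patch peaks against SS, which has few, so state and patch set cannot be told apart in them.

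Between the cocaine states of D1 MSN, 700 of 1511 CC noncoding promoters (46.3%) had no peak in SC, beside 66.2% of all CC peaks, and 9 of 905 SC ones had none in CC, beside 1.15%. Against CS, 399 of 1511 CC ones (26.4%) had none, beside 44.9% of all CC peaks, and 69 of 1267 CS ones had none in CC, beside 6.46%. The pair of CC and CS lies within the set with many patch peaks, and so does that of CC and SC.

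Named by the highest fold, the CC promoters with no D1 SS peak within 1 kb were led by 2810429I04Rik at 13.8, Gm26753 at 13.4 and Rnu3b2 at 12.4. Those of SC were led by Gm24187 at 16.7, Gm24270 at 13.4 and AC156953.1 at 11.6. Those of CS were led by Gm24187 at 13.1, Rnu3b2 at 11.2 and Gm24270 at 10.9, with Rbm3os, antisense to the cold-inducible RNA-binding gene Rbm3, at 10.4. 2810429I04Rik, Gm26753, Rbm3os and Gm21989 were open in all lists except D1 SS, D2 lists included, so this pattern was not tied to 1 cocaine state. The SS promoters with no D1 SC peak were weaker, led by Tgif1-ps at 5.56, AC154313.1 at 5.54 and Gm4208 at 5.47. CC promoters absent in D1 SC were led by Gm16348 at 9.97, at the start of Fgl1, and those absent in D1 CS by A430073D23Rik at 7.46. In the reverse directions, Celrr at 6.52 led SC promoters absent in CC and 9230009I02Rik at 5.29 CS promoters absent in CC.

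In D2 MSN the same 5 pairs were compared. For SC, 82 of 1115 noncoding promoters (7.35%) had no peak in SS, beside 12.9% of all SC peaks, and 151 of 1153 SS ones (13.1%) had none in SC, beside 17.9%. For CS, 109 of 951 (11.5%) had none in SS, above the 6.34% of all CS peaks, and 412 of 1153 SS ones (35.7%) had none in CS, beside 61.7%. For CC, 136 of 1198 (11.4%) had none in SS, beside 20.0%, and 74 of 1153 SS ones (6.42%) had none in CC, beside 10.6%. CC and SC differed by 176 of 1198 CC ones (14.7%), beside 22.7%, and by 53 of 1115 SC ones (4.75%), beside 8.31%. CC and CS differed by 454 of 1198 CC ones (37.9%), beside 65.3%, and by 111 of 951 CS ones (11.7%), above the 5.86% of all CS peaks. The pairs among CC, SC and SS lie within the set with few patch peaks, and those with CS cross the sets.

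The D2 CS promoters with no D2 SS peak were led by genes with transcript spans of at most 350 bp: Gm24187 at a fold of 17.0, Rnu3b4 at 9.36, Gm24447 at 8.88, AC156953.1 at 8.38 and Rnu3b2 at 8.38. The same 5 genes led against D2 CC. The SS promoters with no CS peak were led by the lincRNA genes AC154313.1 at 8.39 and AC131677.1 at 7.84. SC and CC promoters missing in SS were weaker, led by Gm29458 at 4.92 for SC and Gm38584 at 5.54 for CC. Against SC, CC promoters were led by AC153556.1 at 5.69, and SC promoters missing in CC by Mir6546 at 5.65. CC promoters missing in CS included Mir344c, a miRNA gene of the Ndn region, at 8.14, and this gene had a peak in all lists except D2 CS.

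Between the cell types, 2 of 715 D1 SS noncoding promoters had no peak in D2 SS, beside 1.88% of all D1 SS peaks, and 486 of 1153 D2 SS ones (42.2%) had none in D1 SS, beside 55.8%. At SC, 95 of 905 D1 ones (10.5%) had none in D2, beside 7.35% of all D1 SC peaks, and 370 of 1115 D2 ones (33.2%) had none in D1, beside 58.1%. At CS, 451 of 1267 D1 ones (35.6%) had none in D2, beside 49.8%, and 63 of 951 D2 ones (6.62%) had none in D1, beside 6.25%. At CC, 398 of 1511 D1 ones (26.3%) had none in D2, beside 27.0%, and 95 of 1198 D2 ones (7.93%) had none in D1, beside 20.8%. D1 CC promoters missing in D2 CC were led by Rnu3b2 at 12.4, Gm24187 at 11.9 and Rn7s6, a gene of the 7SL family, at 11.3. D2 CC promoters missing in D1 CC were led by CT009718.5 at 7.22, and Gm15987 at 6.27 was found in D2 CC, D2 SC and D2 SS among the 8 lists. The SS and CS pairs of D1 and D2 lie within a patch set, and the SC and CC pairs cross the sets. The 14 comparisons share lists, so they are not independent of one another.

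Over the 28 directions, the share of noncoding promoters without a peak in the other list was above that of protein-coding promoters in 27, with separate intervals in 26, and above that of all peaks in 5. Stand-alone promoters were missing more often than near ones in 28 of 28. For example, 63.5% of stand-alone and 34.7% of near D1 CC promoters had no peak in D1 SS, beside 32.7% of protein-coding ones. Within bands of fold rank the shares differed by band. Of D1 CC peaks below the 20th fold percentile, 84.5% of noncoding and 82.4% of protein-coding promoters had no peak in D1 SC, with overlapping intervals. Of D1 CC peaks between the 60th and 80th fold percentile, 37.1% of noncoding, 46.1% of stand-alone, 15.2% of protein-coding and 52.3% of all peaks had none in D1 SC. In the same band of D2 SS peaks, 21.9% of noncoding, 24.7% of stand-alone, 15.6% of protein-coding and 32.5% of all peaks had none in D1 SS.

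Exactly the 4 lists with many patch peaks shared 49 noncoding regions (2.15%), beside 0.928% of protein-coding regions and 0.338% of all regions. Exactly the 4 lists with few patch peaks shared 0, beside 0.362% of all regions. Of the 49, 20 had a transcript span of at most 350 bp, which is 5.93% of the 337 regions with so short a span, against 1.49% of the 1942 with a longer one. The miRNA Type gene Gm24187 (chr13:9834076-9834752), not matched in RefSeq, had folds of 11.9, 13.1 and 16.7 in D1 CC, CS and SC and of 17.0 in D2 CS. It had no noncoding promoter peak in D1 SS, D2 CC, D2 SC and D2 SS. Rnu3b2 (chr11:87470852-87471792) and Rnu3b4 (chr11:87461790-87462768), 2 copies of the U3 RNA gene that acts in ribosomal RNA processing, showed the same lists, as did AC156953.1, Gm24447, Mir6236 and several snRNA genes of chromosome 12, such as Gm25679 and Gm26444. Genes of U3, of 7SL and of small nuclear RNAs have near copies elsewhere in the genome, so their values are uncertain. The effect of such copies was not measured here. All of CS lies in the set with many patch peaks and all of SS in the other, so between CS and SS state and patch set cannot be told apart. CC and SC lie in the first set in D1 MSN and in the other in D2 MSN. The 49 regions were selected by their presence in exactly those 4 lists. That they have a peak in D1 MSN and none in D2 MSN in these 2 states therefore holds by definition. What lies behind the pattern was not tested.

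CG content differed along presence. In RefSeq promoter windows, lncRNA genes with a stand-alone noncoding promoter peak had a median of 10 CG (416 windows), and those with a near one 27.5 (258 windows), where all 27025 windows have a median of 7. Taking every stand-alone lncRNA window with any overlapping peak, the median was 15 CG for 322 genes with a peak in all 8 lists and 6 for 855 genes with a peak in 1 to 7 lists. It was 3 for 7107 genes with none. Protein-coding windows had medians of 24 (7072 genes), 17 (3197 genes) and 3 (7223 genes) in the same 3 classes. A ratio of observed to expected CG of at least 0.6 was found in 52.2% of stand-alone lncRNA windows open in all lists and in 87.0% of protein-coding ones.

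Motifs were searched as letters on both strands, each motif separately and without regard to overlap. GGGCGG, the core of the Sp1 box, was in 51.2% of stand-alone lncRNA windows open in all 8 lists, in 22.2% of those open in 1 to 7 and in 7.94% of those with no peak, beside 36.8% of all windows. TATAAA was in 11.2%, 12.4% and 17.8% of these 3 classes, beside 13.9% of all windows. CCAAT was in 28.3%, 31.9% and 36.8%, beside 37.8% of all windows. GGGCGG contains a CG, so its share moves with CG content, and a match in a window is not evidence of a bound factor. Windows were found for 707 of the 2237 member genes. There were 0 windows on chromosome 18, so the CG and motif values, those of all windows included, leave that chromosome out.

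**Figure D5:**
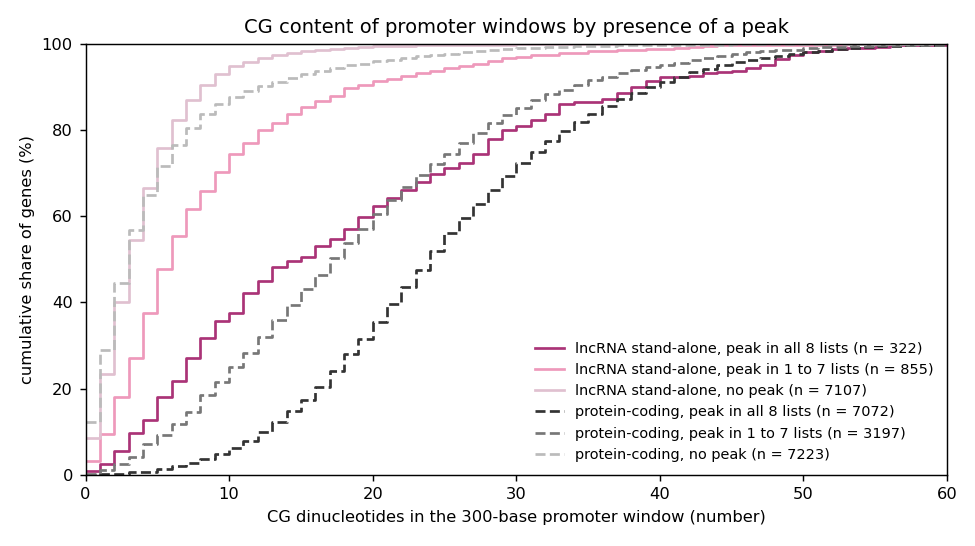
Cumulative share of genes in percent (vertical axis) by the number of CG dinucleotides in the promoter window (horizontal axis), for stand-alone lncRNA genes (solid) and protein-coding genes (dashed) with an overlapping peak in all 8 lists, in 1 to 7 lists or in none. Medians are 15, 6 and 3 CG for stand-alone lncRNA genes and 24, 17 and 3 for protein-coding genes.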

How the data were processed

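ATAC-seq peak lists of 8 groups, together 26 libraries, were used. Per the submitters' processing notes, the tools were cutadapt, HISAT, SAMtools and MACS2 and the build was mm10. Versions and any pooling of libraries before calling are not given in the sources used here. The fold enrichment (a ratio over local background) and the q-value of each peak were deposited by the authors, and so were Region, Type and distance. The q-value reached 0.0453 at most. The lists hold 0 columns of single libraries and no read totals.

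Only the autosomes and sex chromosomes were kept. Fold was turned into a percentile within its list. A peak counted as found in another list when at least 1 bp overlapped. Coding starts came from a RefSeq table (GRCm38.p6) with 1 start per gene. Its strand came from the promoter table for 17492 genes and from the lists for 2948, and both ends were used for 1447. Peaks were merged over lists, and a merged region was near when its closest noncoding peak was. Genes were named by lists of known genes, by the 3 highest mean percentiles per Type, and by the 5 highest folds per direction or pattern. The members and lists were chosen with earlier results of these data known. Overlaps and distances were tested on simulated intervals. Python 3.11.15, pandas 2.3.3, numpy 2.4.6, scipy 1.17.1 and matplotlib 3.10.9 were used. Alternatives changed the q limit, list length, overlap, promoter class, start sites and members.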

Additional observations from a re-analysis of the deposited data

Results flagged for a closer look

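The number of noncoding promoter peaks moved in opposite directions in the 2 cell types, by single lists and without a test of the difference. SC minus SS was 190 peaks in D1 MSN and -38 in D2 MSN. CS minus SS was 552 peaks in D1 MSN and -202 in D2 MSN. Protein-coding promoter peaks moved the same way, so the shift was not particular to noncoding promoters. They numbered 8585 in SS, 10276 in SC and 11718 in CS of D1 MSN. In D2 MSN they numbered 10948 in SS, 10633 in SC and 10760 in CS. In lists of equal length SC minus SS was 191 in D1 MSN and -7 in D2 MSN, and CS minus SS was 138 in D1 MSN and 266 in D2 MSN. Protein-coding promoter peaks at equal length numbered 8509 in SS, 10212 in SC and 9772 in CS of D1 MSN. In D2 MSN they numbered 8374 in SS, 8132 in SC and 10760 in CS, again in the same directions. The D1 SC list is shorter than the D1 SS list, with 28321 against 28579 peaks, the D1 CS list is longer than the D1 SS list, and the D2 SC and D2 CS lists are shorter than the D2 SS list. The part of list length was not tested beyond the values at equal length. Those values sort by patch set, with 793 to 951 noncoding peaks in lists with many patch peaks and 678 to 703 in the others. For protein-coding promoters the ranges are 9306 to 10760 and 8020 to 8509. State and patch set cannot be told apart in both D1 pairs and in the D2 pair of CS and SS. The D2 SC list rests on 1 library.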

How the results depend on the processing

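Each list is 1 value, read depth is unknown, and list length differs up to the ratio of 77103 to 27917 peaks, which limits every count. No paired analysis was possible because the lists hold no column of single libraries, and leaving out a replicate could not be run for the same reason. The cause of the changes below was not tested unless fewer peaks entered.

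With lists of equal length, where fewer peaks enter, noncoding promoter peaks numbered 793 in D1 CC, 841 in D1 CS, 684 in D2 CC, 678 in D2 SC and 685 in D2 SS. CC minus SS became 90 in D1 and -1 in D2, which turned from 45, CS minus SS became 138 in D1 and 266 in D2, which turned from -202, and SC minus SS became -7 in D2. The D1 pairs and the D2 pair of CS and SS cross the patch sets. The noncoding share of promoter peaks became 7.85%, 7.92%, 7.86%, 7.70% and 7.56% in D1 CC, D1 CS, D2 CC, D2 SC and D2 SS. Median fold percentiles became 53.4, 51.1, 55.3 and 52.0 in D1 CC, D2 CC, D2 SC and D2 SS. Near shares became 38.0%, 38.8%, 39.3%, 39.4% and 38.8% in D1 CC, D1 CS, D2 CC, D2 SC and D2 SS.

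The noncoding share became 10.4%, 8.88% and 7.48% in D1 CC, D1 CS and D1 SC at q of at most 1e-05. With peaks within 1 kb of a TSS added it was 15.4%, 12.9%, 10.1% and 10.2% in D1 CC, CS, SC and SS, and 14.1%, 9.98%, 13.4% and 13.5% in D2 CC, CS, SC and SS. Ranked by q, median percentiles were 66.6, 62.6, 66.2, 64.9 and 64.8 in D1 CC, D1 SS, D2 CC, D2 SC and D2 SS. Stand-alone members had 55.1, 49.8, 50.7 and 48.0 in D1 CC, CS, SC and SS, and 55.1, 50.2, 53.9 and 53.2 in D2 CC, CS, SC and SS. With the starts of the promoter table added, near shares were 30.2%, 34.6%, 44.3% and 45.2% in D1 CC, CS, SC and SS, and 32.6%, 44.2%, 34.9% and 33.8% in D2 CC, CS, SC and SS. Beside these stand 18.4% of all peaks in D1 CC, the lowest, to 43.7% in D2 CS, the highest. Presence in all lists became 53.2% with equal lengths, 26.9% for stand-alone regions and 43.0% counting peaks within 1 kb. It was 51.7% over the 4 lists with many patch peaks and 55.6% over the other 4.

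Counts of noncoding promoters without a peak in the other list changed as follows. At equal lengths they are out of 793, 841, 894 and 703 noncoding promoters in D1 CC, CS, SC and SS. In D2 CC, CS, SC and SS they are out of 684, 951, 678 and 685. Fewer peaks also enter at the q limit. Shares over all peaks under these settings are not given here, so the counts cannot be read against background. With equal lengths, D1 CC peaks missing were 181 in SS, 93 in SC and 71 in CS, and 167 in D2 CC. D1 CS ones were 218 in SS and 131 in D2 CS, D1 SC ones 120 in CC and 236 in D2 SC, and D1 SS ones 55 in CC, 59 in CS and 61 in D2 SS. D2 CC ones were 57 in SS, 63 in SC, 81 in CS and 58 in D1 CC. D2 CS ones were 236 in SS, 257 in CC and 157 in D1 CS, D2 SC ones 51 in SS and 68 in D1 SC, and D2 SS ones 77 in CS, 70 in SC and 89 in D1 SS. With a reciprocal overlap of 50%, D1 CC ones were 623 in CS, D1 CS ones 367 in CC, D1 SC ones 336 in CC and 330 in D2 SC, and D1 SS ones 231 in CC, 176 in CS, 199 in SC and 182 in D2 SS. D2 CC ones were 231 in SS, 285 in SC and 233 in D1 CC, D2 CS ones 390 in SS, 406 in CC and 308 in D1 CS, D2 SC ones 211 in SS and 192 in CC, and D2 SS ones 193 in CC and 265 in SC. With no peak within 1 kb, D1 CS ones were 45 in CC and D2 CS ones 34 in D1 CS. At q of at most 1e-05, D1 CS ones were 26 in CC, D1 SC ones 4 in CC, D1 SS ones 0 in CC and 1 in D2 SS, and D2 CS ones 70 in SS and 70 in CC. Leaving out spans of at most 350 bp kept all 28 counts within 1.5 times.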
